A study of Homo sapiens with 10 samples.

Results

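A549 and H1650 are human lung carcinoma lines of epithelial origin, and their transcript levels were compared on all 10 arrays of the series, 5 for each line. Every array of A549 had a counterpart from H1650 with the same siRNA and the same stimulus, so that the lines were matched over 5 conditions. H1650 is described by the labels as an EGFR mutant. The groups of each line were cells given control siRNA and no stimulus, control siRNA and 1 µM nicotine, control siRNA and 100 ng/ml EGF, ID1 siRNA and nicotine, and ID1 siRNA and EGF. All cells had been starved of serum for 48 h, and stimulation lasted 18 h. Each line and condition was represented by 1 array, and the labels do not say whether the arrays came from separate cultures. The labels name Ham's F-12K and RPMI-1640 as growth media without assigning them, so a difference in medium and a difference in line cannot be told apart.

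EGFR is the receptor for EGF and passes its signal on to the RAF, MEK and ERK kinases. Lung adenocarcinomas often carry activating changes in this pathway, and lines made from them also differ in how closely they resemble normal airway epithelium. A549 is widely used as a model with a disabled KEAP1, the protein that normally marks the antioxidant transcription factor NRF2 for destruction, and with a truncated SMARCA4, an ATPase of the SWI/SNF chromatin remodelling complex.

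Values are MAS5 signals on a linear scale, and each array had been scaled to a trimmed mean of 500. Each gene was represented by its brightest probe set, and 12514 genes passed a filter on mean signal. Differences are log2 A549 minus H1650 over the 5 matched conditions, with the limma standard error (SE). They were tested with limma and Benjamini-Hochberg adjustment, and a gene was called at an adjusted p under 0.05. Because single arrays were compared, the spread behind each test is that of the line difference over the 5 conditions combined with that of other genes of like signal. A gene was counted as 4-fold different if it was called and if the difference stayed at 2 log2 units or more after signals below the median of their array had been raised to that median. Where the lower line lay below the array median on all of its 5 arrays, only the bound is given, as "at least N-fold". Where it did so on 3 or 4 of 5, the fold after raising those signals to the median is given beside the measured difference, as "with the floor". The 5 signals of a line are listed in the order of control siRNA unstimulated, with nicotine and with EGF, then ID1 siRNA with nicotine and with EGF.

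ID1, the target of the siRNA, had signals of 1645, 3719.8, 3049, 1343 and 1343 in A549 and 5029.9, 4964, 5121, 881 and 1031 in H1650. The signal was lower on each ID1 siRNA array than on the control array of its line and stimulus. The A549 array labelled as unstimulated control, at 1645, lay closer to the ID1 siRNA arrays of that line than to its other controls. Over all genes tested this array also had a higher correlation with the A549 arrays of ID1 siRNA under nicotine (r = 0.980) and EGF (r = 0.975) than with the stimulated A549 controls (r = 0.973 with nicotine and 0.969 with EGF). Counts without the unstimulated condition are given for all genes and for the interferon list. Arrays of the same line had correlations of 0.957 to 0.988 across genes and arrays of different lines 0.748 to 0.775. The 3′ to 5′ signal ratio of the ACTB control probe sets was 1.43 to 1.52 in A549 and 1.23 to 1.33 in H1650, without overlap. That of GAPDH was 0.887 to 0.945 and 0.903 to 0.932. The part of this RNA quality measure in the line differences was not tested. The A549 control array with EGF had the highest top signal, at 56869 against 30639 to 46205 elsewhere, and many bright genes read highest there.

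Of the 12514 genes, 7893 (63.1%) were called between the lines, 3862 (30.9%) higher and 4031 (32.2%) lower in A549. The median difference over all genes was -0.03 and the median absolute difference 0.55, against a median SD of 0.312 for the 5 differences of a gene. The same sign was seen in 5 of 5 conditions for 7900 genes, and for 6256 (50%) the signals of the lines did not overlap. At 4-fold, 1027 genes (8.21%) were called, 473 (3.78%) higher and 554 (4.43%) lower in A549. Of these, 1021 differed in the same direction in all 5 conditions, and for 243 only a bound could be given. The lines accounted for 82.4% of the sum of squares over all genes and arrays, the conditions for 9.26%. Without the unstimulated condition 7153 genes were called (3527 higher, 3626 lower), and 1010 genes at 4-fold, of which 980 were among the 1027. The share of higher calls depended on the scaling: centring each array on its median moved the median of all genes to 0.12 and gave 4577 higher and 3187 lower calls in place of 3862 and 4031. With so large a share of genes called, counts within gene groups are given beside these shares.

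**Figure D1:**
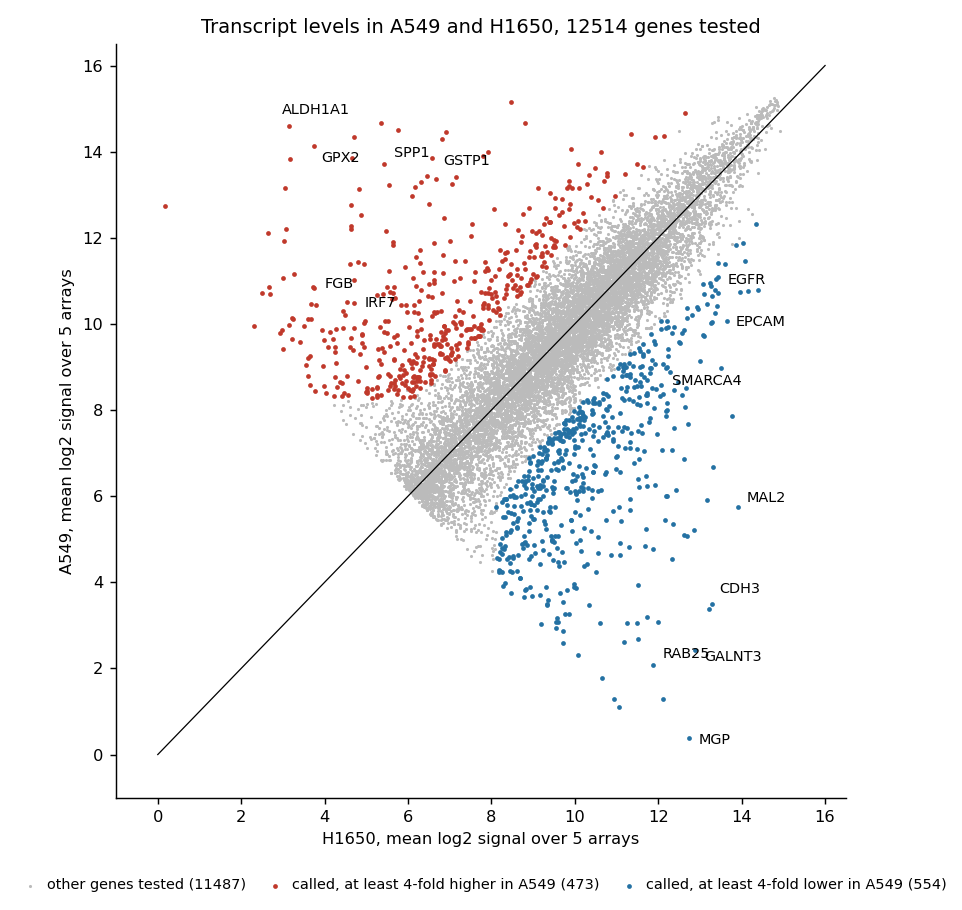
Mean log2 signal of each of the 12514 genes tested over the 5 arrays of H1650 (horizontal axis) and of A549 (vertical axis). Red points are the 473 genes called 4-fold higher in A549, blue points the 554 called 4-fold lower, grey points all others, and the line marks equal signal.

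The 12 genes furthest above H1650 after the floor, with the same sign in every condition, were AKR1C3, ALDH1A1, AKR1C2, ALDH3A1, GPX2, HPGD, AKR1C1, KYNU, SPP1, GSTP1, PTGS2 and DNAJC12. ALDH1A1, an aldehyde dehydrogenase that makes retinoic acid, had signals of 24562, 22995, 34914, 20975 and 22127 in A549 and 19.9, 17.8, 2.72, 3.74 and 14.6 in H1650. It was among the brightest genes of A549 and below the array median on every H1650 array, and was at least 321-fold higher (adjusted p = 3.51e-07, limma with Benjamini-Hochberg adjustment). AKR1C3, an aldo-keto reductase that reduces steroids and prostaglandins, read 23976, 24052, 36679, 22202 and 25528 in A549 and 33.9, 53.8, 19.2, 53.01 and 60.6 in H1650, at least 338-fold higher. Probe sets of AKR1C1, AKR1C2 and AKR1C3 can share reads of near-identical transcripts, so the level of each single gene is uncertain. ALDH3A1, which oxidises aldehydes from lipid peroxidation, was at least 269-fold higher, at 12961 to 39620.4 in A549 and 12.98 to 47.5 in H1650.

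GPX2, a glutathione peroxidase of epithelia, had signals of 16641, 19667, 25914, 14300.3 and 15205 in A549 and 32.7, 22.9, 5.30, 7.85 and 14.2 in H1650, and was at least 233-fold higher. GSTP1, which conjugates glutathione to electrophiles, read 14131, 15536, 19692, 12476 and 13634 in A549 and 90.6, 139.7, 78.9, 70.1 and 117 in H1650, with a difference of 7.28 ± 0.17 (adjusted p = 2.59e-08, limma). For both genes every A549 array lay far above every H1650 array. PTGS2, the inducible cyclooxygenase that starts prostaglandin synthesis, read 8717, 9593, 10479.6, 12202 and 16105 in A549 and 103, 74.3, 80.8, 80.8 and 103 in H1650. HPGD, the dehydrogenase that inactivates prostaglandins, was higher in the same line, at 12586 to 18713 against 5.41 to 32.6 in H1650. A549 thus had more transcript both of the enzyme that starts prostaglandin synthesis and of the enzyme that ends prostaglandin action. KYNU, which cleaves kynurenine in tryptophan breakdown, ranged from 16519.7 to 28823 in A549 and from 88.5 to 131 in H1650. SPP1, the secreted phosphoprotein osteopontin, ranged from 9229 to 19536 in A549 and from 29.7 to 63.1 in H1650, and DNAJC12, a cochaperone of aromatic amino acid hydroxylases, from 8329.6 to 10200.4 and from 14.9 to 71.99.

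The 12 genes furthest in the other direction were MAL2, CDH3, S100A9, KLK6, GALNT3, ST14, MGP, PLAC8, CST6, UCA1, S100A8 and SPRR1B. MAL2, a membrane protein of transcytosis to the apical surface, had signals of 46.2, 56.2, 25.5, 113 and 60.3 in A549 and 15479.5, 16172, 14813, 14631 and 15642 in H1650 and differed by -8.15 ± 0.25 (4 of 5 A549 arrays below the median, at least 206-fold with the floor). CDH3, the P-cadherin of cell junctions, read 27.3, 11.1, 7.79, 9.81 and 7.93 in A549 and 11534, 10369.5, 9668, 8901 and 9982 in H1650, at least 146-fold lower in A549. Every A549 value of CDH3 lay below the median of its array, and no array of the lines overlapped for either gene.

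MGP, a secreted inhibitor of calcification, ranged from 0.514 to 2.44 in A549 and from 2666 to 11438 in H1650, the latter with a low value of 2666 on the control array with EGF. GALNT3, which starts mucin-type O-glycosylation, ranged from 2.39 to 11.5 in A549 and from 6369 to 9106 in H1650. ST14, the membrane serine protease matriptase, ranged from 13.7 to 72.6 in A549 and from 6719.9 to 8259.9 in H1650, and KLK6, a secreted kallikrein protease, from 43.2 to 79.4 and from 8675 to 10144. S100A8 and S100A9, which form calprotectin, were at least 75.6-fold and at least 137-fold lower in A549. CST6, a cysteine protease inhibitor, and SPRR1B, a precursor of the cornified envelope, were at least 96.1-fold and at least 74.1-fold lower. UCA1, a long noncoding RNA, was at least 90.9-fold lower, and PLAC8 differed by -6.63 ± 0.15.

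**Figure D2:**
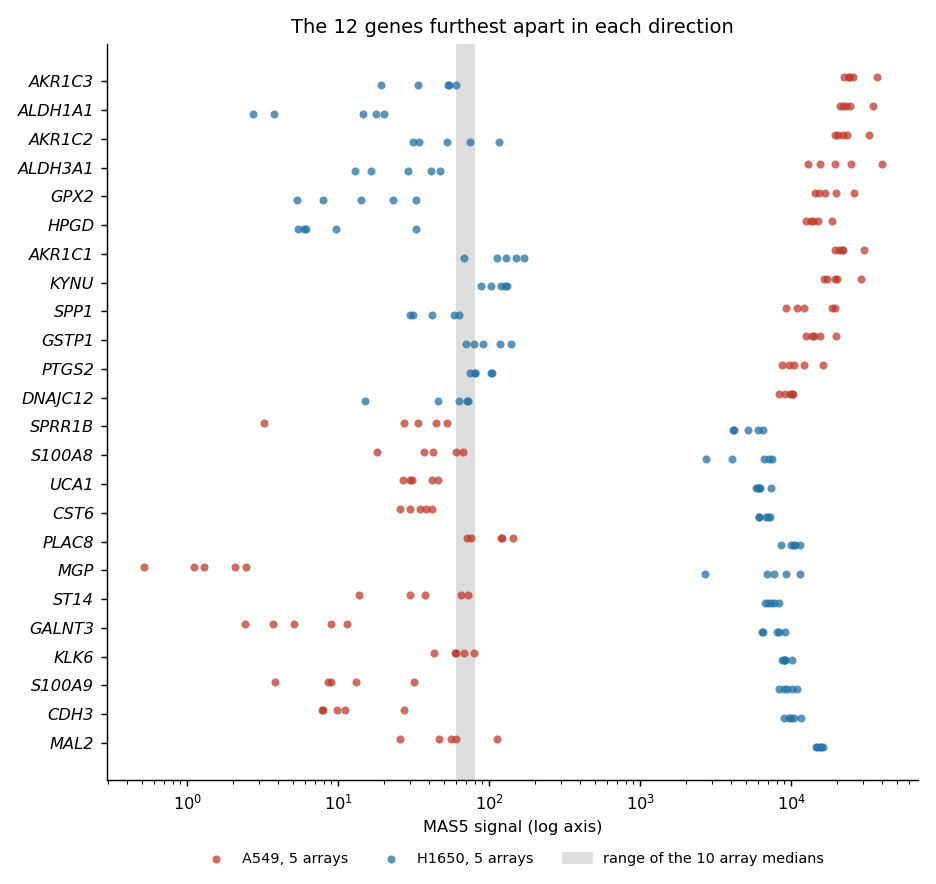
Signals of the 12 genes furthest apart in each direction on the 5 A549 arrays (red) and the 5 H1650 arrays (blue), on a log axis of MAS5 signal. The grey band spans the 10 array medians. No red point overlaps the blue points of the same gene, which largely follows from the choice of these genes by the size of their difference.

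NRF2 drives genes for glutathione synthesis, NADPH supply, quinone and carbonyl reduction and drug export. All 30 tested members of a list of such genes were called higher in A549, against 30.9% of all genes, and 15 of the 30 were 4-fold higher, against 3.78%. The median difference of the list was 1.98. AKR1C1, AKR1C2, AKR1C3, ALDH1A1, ALDH3A1 and GPX2, described above, belong to the list. The list was written with earlier results of these data known. All of these but AKR1C1, and also ABCC2, passed the signal filter only through their A549 signals. The counts are therefore a description and not independent of the data. The median of the list lay between 1.77 and 2.35 in each of the 5 conditions.

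For glutathione synthesis, GCLC, the catalytic subunit of the first enzyme, had signals of 11975, 14915, 14892, 8035 and 8476 in A549 and 1433, 1512, 1275, 1117 and 1136 in H1650, a difference of 3.13 ± 0.12. The A549 signals were lower on both ID1 siRNA arrays than on the 3 controls, yet all lay above every H1650 signal. GCLM, its modifier subunit, ranged from 11129 to 14001 in A549 and from 3281 to 4675 in H1650, and SLC7A11, which imports cystine for glutathione, read 10660.3, 9267, 10245, 9828 and 8766 in A549 and 1006, 981, 1718, 1279 and 1374 in H1650. All 3 genes were higher on every A549 array than on any H1650 array. For NADPH supply, PGD of the pentose phosphate pathway differed by 2.01 ± 0.14 and the malic enzyme ME1 by 1.94 ± 0.15. TXNRD1, which reduces thioredoxin, ranged from 23488 to 36694 in A549 and from 7829.6 to 13266 in H1650. HMOX1, which degrades haem, read 6008, 3969, 2477, 4914 and 3873 in A549 and 680.4, 716, 490.2, 886 and 734 in H1650. The HMOX1 signals of A549 varied over a wider range than those of H1650 and did not overlap them.

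Some classical targets differed less. NQO1, a quinone reductase often used as a marker of NRF2 activity, was bright in both lines, at 18111 to 34984 in A549 and 11909 to 13709.6 in H1650, and differed by 0.86 ± 0.15 (adjusted p = 0.00103, limma). CBR3, a carbonyl reductase, had the smallest difference of the list, at 0.37 ± 0.14, and its call was lost when any of 4 of the 5 conditions was left out (adjusted p = 0.0638 to 0.142, limma).

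The 2 central regulators were at like levels. NFE2L2, the gene of NRF2, had signals of 6889, 8301, 8450.5, 6398 and 6400.5 in A549 and 7411, 7590.3, 7756, 5558 and 5084 in H1650, and the difference of 0.14 ± 0.09 had a 95% confidence interval within 1.5-fold. KEAP1 read 2021, 2380.1, 2164, 1871 and 2122 in A549 and 1976, 1692, 1647, 1856 and 1825 in H1650, likewise within 1.5-fold. Of 7 tested regulators, SQSTM1, the autophagy receptor that binds KEAP1 (1.67 ± 0.15), and MAFG, a small MAF partner of NRF2 (0.97 ± 0.10), were called higher. MAFF, another small MAF partner, was called lower (-1.40 ± 0.20). Over all genes 30.9% were called higher and 32.2% lower. These are transcript levels and say nothing of protein stability or of mutations.

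The antioxidant response element through which NRF2 acts has the core TGACNNNGC. In the 250 bases upstream of the gene start in RefSeq (GRCh38.p14), this core was present on either strand in 6 of the 23 list members with a window (26.1%), in 11.03% of the windows of all 27305 genes, and in 12.1% of those of tested genes. The share was 25% in the 20 epithelial junction genes with a window and 10.3% in the 359 genes called 4-fold higher in A549. A match describes letters, and no binding was measured. The windows of GPX2, GCLM and ME1 are shown, 1 each from peroxide reduction, glutathione synthesis and NADPH supply, with the core in capitals. In GPX2 and GCLM it lies on the opposite strand and is printed as its reverse complement. GPX2 lies at chr14:64942746-64942995, minus strand, GCLM at chr1:93909431-93909680, minus strand and ME1 at chr6:83431052-83431301, minus strand.
GPX2: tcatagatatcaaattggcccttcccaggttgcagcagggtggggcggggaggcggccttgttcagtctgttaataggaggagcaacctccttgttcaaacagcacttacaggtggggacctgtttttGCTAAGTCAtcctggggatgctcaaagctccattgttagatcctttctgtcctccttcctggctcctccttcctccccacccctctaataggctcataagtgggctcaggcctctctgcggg
GCLM: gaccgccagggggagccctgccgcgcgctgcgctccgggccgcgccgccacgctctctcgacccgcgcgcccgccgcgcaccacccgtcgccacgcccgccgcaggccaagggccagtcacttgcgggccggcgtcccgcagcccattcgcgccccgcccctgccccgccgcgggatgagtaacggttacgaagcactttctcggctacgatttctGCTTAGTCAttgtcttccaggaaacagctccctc
ME1: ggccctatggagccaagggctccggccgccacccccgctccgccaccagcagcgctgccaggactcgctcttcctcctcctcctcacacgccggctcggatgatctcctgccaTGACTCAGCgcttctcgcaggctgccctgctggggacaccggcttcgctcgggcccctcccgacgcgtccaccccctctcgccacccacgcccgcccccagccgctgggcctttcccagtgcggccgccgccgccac

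Export pumps also differed. Of 10 tested ABC transporters, 8 were called higher and 2 lower in A549, against 30.9% and 32.2% of all genes, 5 were 4-fold higher, against 3.78%, and the median difference was 2.36. ABCC2 and ABCC3, which export glutathione and glucuronide conjugates and are also in the NRF2 list, differed by 6.31 ± 0.47 (4 of 5 H1650 arrays below the median, at least 26.8-fold with the floor) and 3.39 ± 0.12. ABCC4, an exporter of cyclic nucleotides and prostaglandins, read 3049, 3318, 2379, 2164 and 1956 in A549 and 222, 212, 262, 212 and 286 in H1650, without overlap. ABCG1, a sterol exporter, differed by 2.78 ± 0.24. On the lower side were ABCG2, the breast cancer resistance pump, at 482 to 964 in A549 against 1012 to 2027 in H1650, and ABCA1, a cholesterol exporter, at -0.69 ± 0.24 (adjusted p = 0.0326, limma). The ABCA1 signals overlapped and its call was lost with centred arrays, with the mean of all probe sets and without any 1 of 3 conditions (adjusted p = 0.0556 to 0.116, limma).

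Epithelial cells are joined by tight junctions, adherens junctions and desmosomes, and transcription factors of the GRHL, OVOL and ELF families and the splicing factor ESRP1 maintain that state. Of 34 tested genes of junctions and polarity, 25 were called lower in A549 and 4 higher, against 32.2% and 30.9% of all genes. At 4-fold 15 were lower and 1 higher, against 4.43% and 3.78%, and the median difference was -1.56. The median was between -1.64 and -1.43 in each of the 5 conditions.

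CDH1, E-cadherin, had signals of 1938, 1862, 1122, 2210.4 and 1818 in A549 and 18615, 18013, 16807, 17714 and 19318 in H1650, a difference of -3.37 ± 0.13 (adjusted p = 2.09e-07, limma). EPCAM, an epithelial adhesion molecule, read 1520.3, 1237, 734, 1044 and 1009 in A549 and 12339, 12456, 12201, 12891 and 14054 in H1650. Both were read in A549 well above the array medians, yet far under every H1650 array. RAB25, a GTPase of apical recycling, read 4.28, 5.01, 5.66, 3.43 and 3.16 in A549 and 3692, 3494, 3709, 4268 and 3762 in H1650, at least 54.7-fold lower. CLDN7, a claudin of tight junctions, was at least 58.8-fold lower, at 2.29 to 60.6 in A549 and 3728 to 4291 in H1650. RAB25 and CLDN7 therefore lay below the array median throughout A549. Among regulators, GRHL2, a factor that maintains epithelial genes, ranged from 19.7 to 41.02 in A549 and from 2279 to 2652 in H1650, and the splicing factor ESRP1 from 12.4 to 52.2 and from 2994 to 3758.

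The group was not uniformly low. The claudins CLDN1 and CLDN2 were called higher in A549, by 0.72 ± 0.14 and 1.54 ± 0.21, and CLDN3 was called higher with at least 2.28-fold. EHF, an epithelial ETS factor, was the 1 member called 4-fold higher, with 1218, 476, 344, 1912 and 1889 in A549 and 168, 146, 222, 156 and 206 in H1650. The 3 A549 arrays with the lowest ID1 signals had the highest EHF signals. ELF3, a related factor, had a 95% confidence interval within 1.5-fold, at 2072 to 2577 in A549 and 2190.4 to 3035 in H1650.

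Mesenchymal genes moved both ways. Of 16 tested members 9 were called higher and 6 lower in A549, with 6 and 3 at 4-fold. Over all genes the shares were 30.9% and 32.2%, and 3.78% and 4.43% at 4-fold. The median of 0.89 ranged from 0.23 to 1.42 between conditions. ZEB1, a repressor of epithelial genes, had signals of 1770.2, 1479, 1351, 1828 and 1899 in A549 and 56.7, 18.1, 81.9, 28.1 and 56.8 in H1650, without overlap. VIM, the intermediate filament vimentin, read 19954, 18080.3, 30964, 16954 and 19918 in A549 and 2307, 2765, 7251, 2689 and 6819.9 in H1650. In H1650 VIM was higher on both EGF arrays than on the 3 others. CDH2, N-cadherin, ranged from 1482 to 3666 in A549 and from 155 to 238 in H1650, and TWIST2, a bHLH factor, differed by 2.92 ± 0.14. S100A4, a calcium-binding protein of motile cells, ranged from 20890.0 to 38659 in A549 and from 331 to 752 in H1650. These 5 genes were higher in A549, but other members of the same list were not. The transcription factors TWIST1 and SNAI2 were called lower, at -1.19 ± 0.12 and -0.93 ± 0.28, as were some matrix genes. SPARC, a matrix glycoprotein, was lower with 551, 248, 158, 678 and 429.8 in A549 against 6840.3, 6558, 5682, 6189 and 7132 in H1650. LOX, a collagen cross-linking oxidase, was at least 9.98-fold lower, and COL5A1, a fibrillar collagen, differed by -2.12 ± 0.28.

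ZEB and SNAI proteins bind E-boxes with the letters CACCTG. This hexamer was present on either strand of the 250 upstream bases in 8 of the 20 epithelial junction genes with a window (40%), in 17.5% of all 27305 windows and in 3 of 11 mesenchymal genes (27.3%). Among genes called at 4-fold it was in 24.5% of the 409 windows of those lower in A549 and in 16.7% of the 359 of those higher, against 16.02% of all genes tested. These shares are descriptions, and ZEB1 binding was not measured. Of the 8 epithelial genes, only RAB25 and DSC2 were 4-fold lower in A549. OCLN, DSP, DSG2 and CRB3 were called lower by less, at -1.01 to -0.46, and ELF3 and TJP1 were not called. The 3 mesenchymal genes, S100A4, ZEB1 and AXL, were called higher. The windows of RAB25 (chr1:156060910-156061159, plus strand) and DSC2 (chr18:31102422-31102671, minus strand) are shown with the hexamer in capitals, as its reverse complement in DSC2.
RAB25: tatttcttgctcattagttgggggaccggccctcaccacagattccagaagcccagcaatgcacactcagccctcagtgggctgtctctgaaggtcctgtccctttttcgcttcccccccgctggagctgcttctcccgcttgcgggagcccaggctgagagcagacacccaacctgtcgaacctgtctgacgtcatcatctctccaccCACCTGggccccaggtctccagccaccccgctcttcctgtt
DSC2: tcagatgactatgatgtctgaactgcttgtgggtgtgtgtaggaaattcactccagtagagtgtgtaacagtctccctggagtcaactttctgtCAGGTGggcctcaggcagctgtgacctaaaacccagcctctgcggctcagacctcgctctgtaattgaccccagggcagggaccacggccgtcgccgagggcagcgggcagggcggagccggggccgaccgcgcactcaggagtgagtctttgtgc

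The 7 carcinoma line markers KRT7, KRT8, KRT18, KRT19, EPCAM, CDH1 and MUC1 were read above the array medians in both lines. KRT8 and KRT18, the keratin pair of simple epithelium, ranged from 20209 to 31711 and 26808 to 47576 in A549 and from 15254 to 18518 and 23053 to 27572 in H1650. They were called higher by 0.47 ± 0.14 and 0.42 ± 0.15, the latter not with quantile normalization or without any 1 of 3 conditions (adjusted p = 0.0532 to 0.095, limma). KRT7 was as bright, at 16740.1 to 32166 in A549 and 14276 to 17729.5 in H1650 (difference 0.33 ± 0.16, adjusted p = 0.101, limma). KRT19 was lower in A549 with 4837, 3542, 4907, 5897 and 6809.9 against 21437, 21495, 20513, 20183 and 21150.2 in H1650, and MUC1, a membrane mucin, differed by -2.34 ± 0.13. With EPCAM and CDH1, 4 of the 7 markers were 4-fold lower in A549, against 4.43% of all genes.

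Of 17 measured markers of fibroblasts, endothelium and blood cells, 6 passed the signal filter and 1 was called, against 63.1% of all genes. That was ACTA2, smooth muscle actin, with 2072, 477, 391, 1456 and 1242 in A549 and 115, 129, 119, 142 and 116 in H1650. Without ACTA2 the summed signal of the markers was 1123 to 1650.1 in A549 and 1324 to 2113 in H1650. PTPRC of blood cells did not exceed 37.6 on any array, CD3D 41.2 and LUM 51.6, all below every array median, while CDH5 of endothelium reached 247 on an H1650 array.

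Tested genes of squamous and basal epithelium were called lower more often than higher in A549. The basal markers KRT5, KRT14 and NGFR were dim in both lines and below the filter, and TP63 and KRT6A were not measured. SERPINB5 and DSG3 passed the filter only through their H1650 signals and SOX2 only through those of A549. Of 11 tested, 6 were lower and 1 higher, against 32.2% and 30.9% of all genes, and 5 and 1 were so at 4-fold, against 4.43% and 3.78%. SERPINB5, the protease inhibitor maspin, was at least 35.00-fold lower, with 2.92 to 66.4 in A549 and 2031 to 3216 in H1650. DSG3, a desmosomal cadherin, TRIM29, a basal cell protein, and LAMB3, a laminin chain, differed by -4.33 ± 0.29 (4 of 5 A549 arrays below the median, at least 11.6-fold with the floor), -3.60 ± 0.23 and -3.05 ± 0.30. SOX2, a stem cell factor, was the member called higher, with 5751, 3403, 3212, 5384 and 5748 in A549 and 58.97, 46.7, 19.5, 65.6 and 47.2 in H1650. Its other bright probe sets differed by -0.06 to 4.27, so the size of that difference depends on the probe set.

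**Figure D3:**
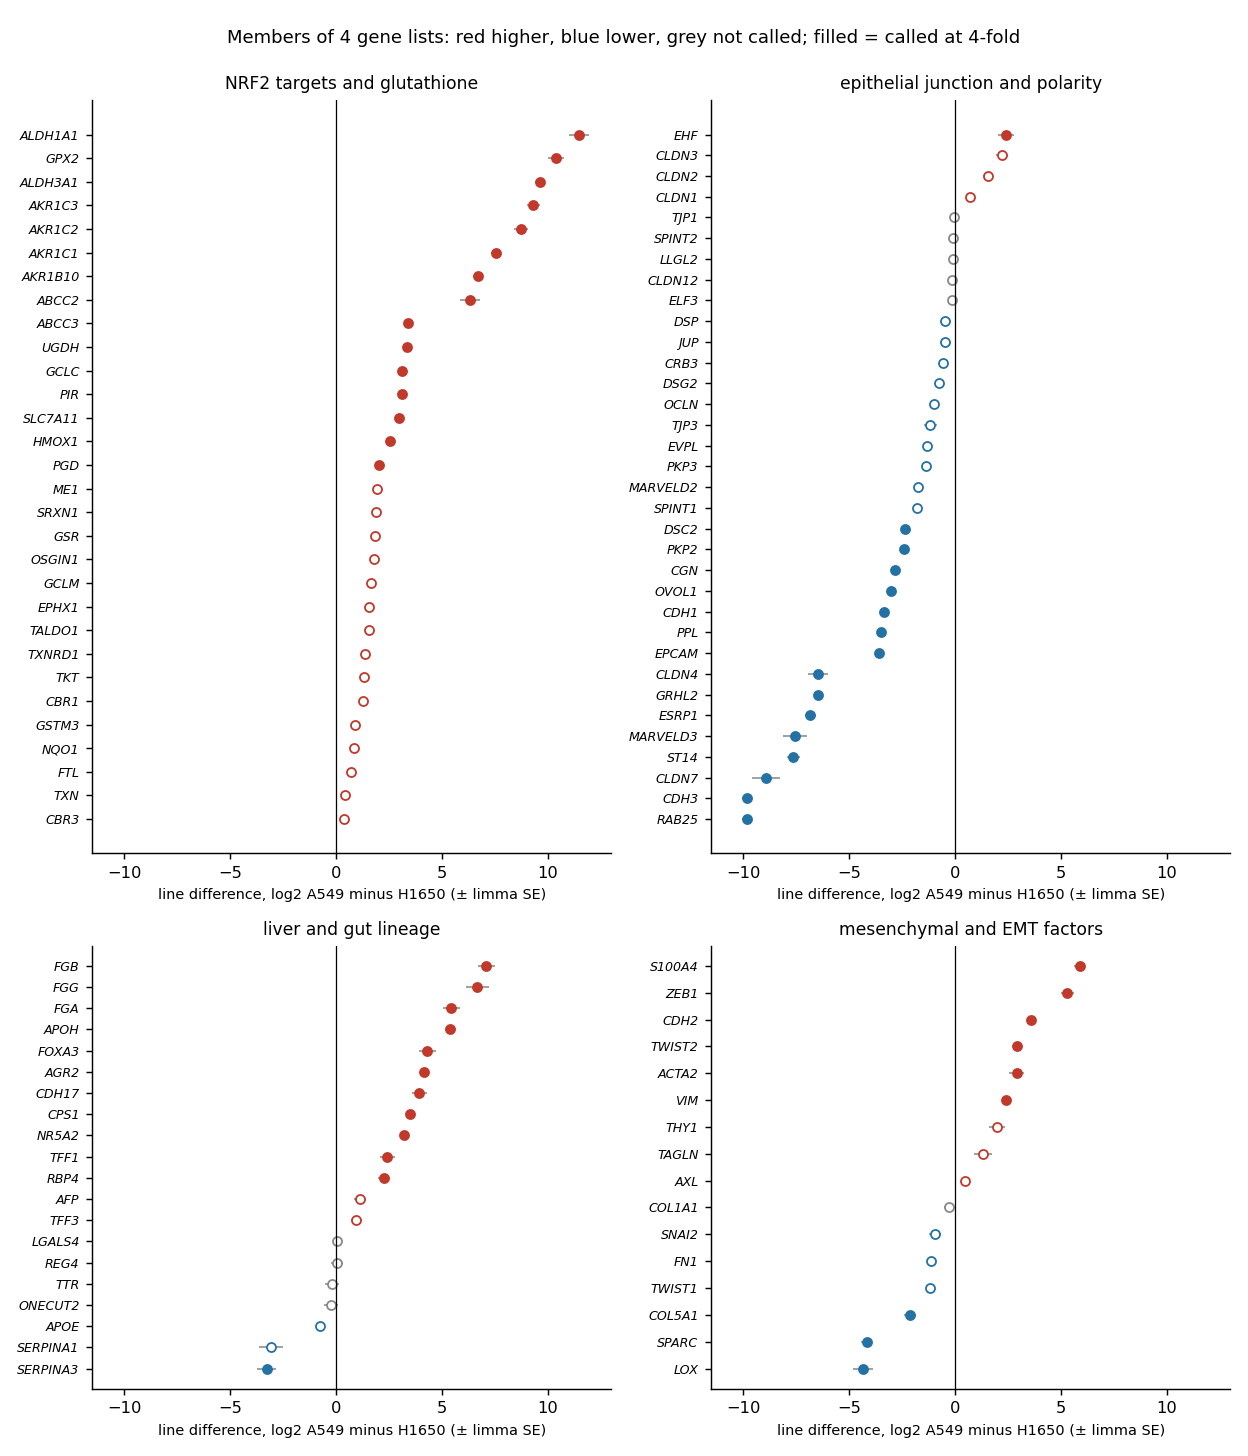
Line differences of the tested members of 4 gene lists, as measured log2 A549 minus H1650 with the limma standard error, also where the text gives only a bound. Filled points were called at 4-fold, open points were not, red and blue points were called higher and lower in A549, and grey points were not called. All 30 NRF2 list members lie right of zero, and 25 of 34 epithelial junction genes are blue.

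Of 37 measured genes of liver and gut epithelium, 20 passed the filter, and most of these were higher in A549. Among those below the filter were ALB, APOA1, APOB and VIL1, dim in both lines. FGA, FGB, FGG, FOXA3, APOH, CDH17, CPS1, TFF1 and TFF3 passed it only through their A549 signals, and SERPINA1 only through those of H1650. The counts that follow were therefore shaped in part by the filter. Of 20 tested, 13 were called higher and 3 lower, against 30.9% and 32.2% of all genes. At 4-fold 11 were higher and 1 lower, against 3.78% and 4.43%, and the median difference was 2.34. FGA, FGB and FGG, the fibrinogen chains secreted by hepatocytes, read 508 to 1068, 1024 to 2492 and 1008 to 1869 in A549. In H1650 they stayed below the array median at 7.46 to 54.6, 7.05 to 25.9 and 2.86 to 31.8. FGA, FGB and FGG were thus at least 10.5-fold, at least 23.7-fold and at least 18.1-fold higher, and the other bright probe set of FGA differed by 0.19. APOH, an apolipoprotein, read 3958, 3104, 2049.9, 2646 and 1672 in A549 and 75.7, 104, 22.8, 74.8 and 61.04 in H1650, without overlap. SERPINA1 and SERPINA3, acute phase protease inhibitors, were lower in A549 at -3.08 ± 0.57 (3 of 5 A549 arrays below the median, at least 3.59-fold with the floor) and -3.26 ± 0.45, and SERPINA1 was not called at 4-fold.

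FOXA factors open chromatin in the foregut and its derivatives, lung and liver among them. FOXA2 had signals of 2965, 2707, 2373, 2648 and 2845 in A549 and 8.15, 16.6, 86.02, 19.7 and 37.6 in H1650, a difference of 6.79 ± 0.44 (4 of 5 H1650 arrays below the median, at least 34.02-fold with the floor), at adjusted p = 3.73e-06 (limma). FOXA1 differed by 1.85 ± 0.14.

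Markers of lung epithelium were mixed. Of 26 measured, 12 passed the filter, and 5 of these were called higher and 2 lower in A549, against 30.9% and 32.2% of all genes. ABCA3, the lipid pump of alveolar type II cells, differed by 2.02 ± 0.19, at 321 to 397 in A549 and 64.3 to 102 in H1650. Other members did not share that direction. SFTPB, SFTPC and NAPSA were not called, and LPCAT1 was called lower at -1.42 ± 0.14. NKX2-1, SFTPD and SLC34A2 lay below the filter. MUC5AC, a gel-forming mucin of airway goblet cells, was at least 10.5-fold higher. LAMP3, also a type II cell marker, had 488, 134, 163, 1563 and 1876 in A549 and 4051, 4179, 1988, 1717 and 1199 in H1650. The LAMP3 signals of the lines overlapped on the ID1 siRNA arrays, and its call as lower was lost without any 1 of the 3 control conditions (adjusted p = 0.0787 to 0.0986, limma). Among secreted and surface products of airway epithelium, 3 of 12 tested were 4-fold higher and 4 were 4-fold lower, against 3.78% and 4.43% of all genes. CEACAM5 and CEACAM6, adhesion antigens, were on the higher side, with at least 4.09-fold for CEACAM5 and 3.01 ± 0.18 for CEACAM6. WFDC2 and SLPI, whey acidic proteins, were on the lower side with -3.39 ± 0.25 and -3.60 ± 0.35, as was CEACAM1 with -2.13 ± 0.37.

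**Figure D4:**
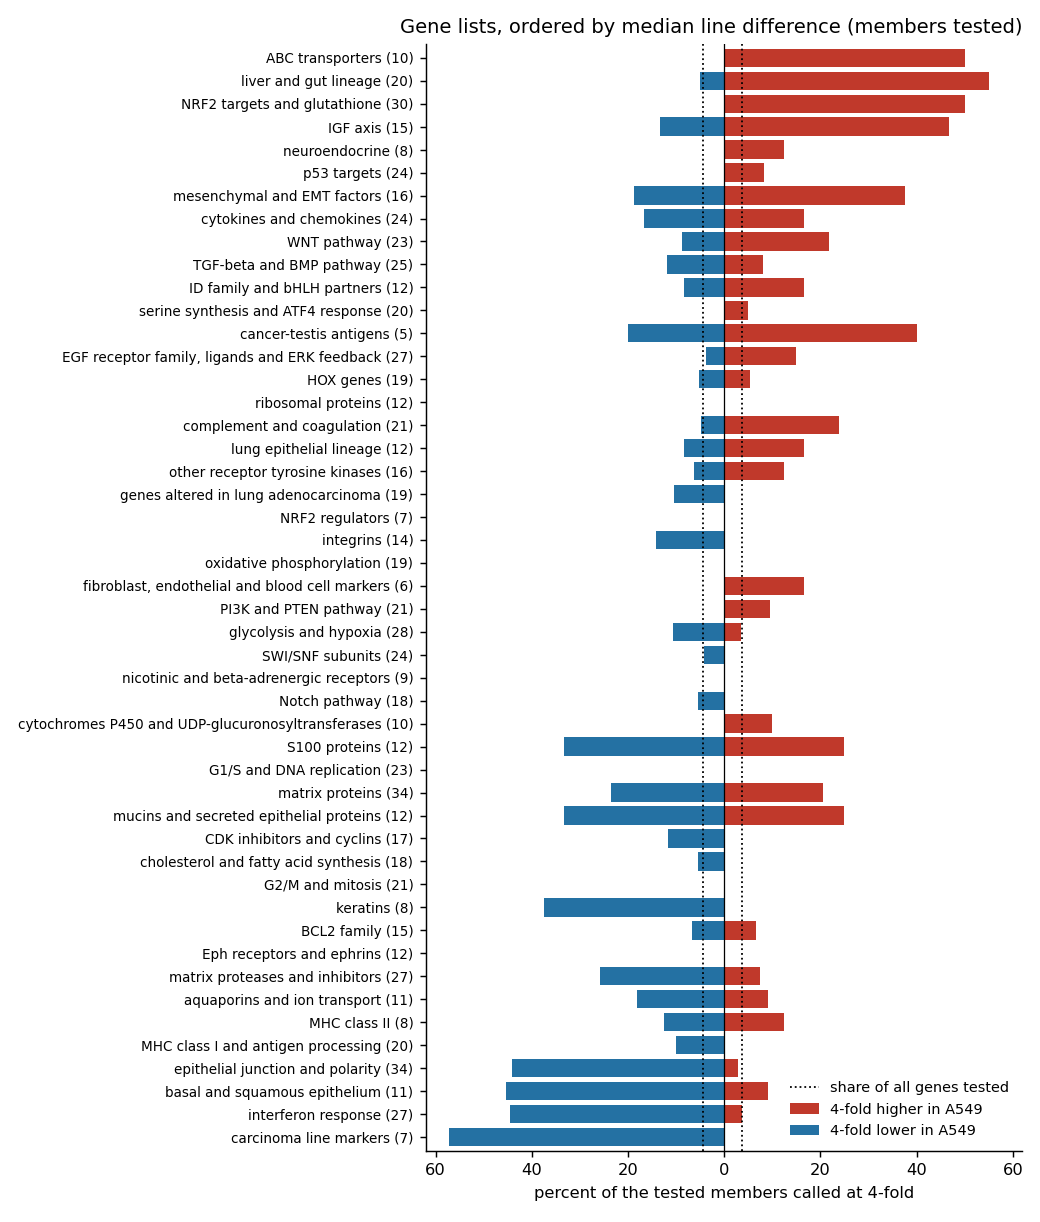
Percent of the tested members of each gene list called 4-fold higher (red, to the right) and 4-fold lower (blue, to the left) in A549, with the number of tested members in brackets and lists ordered by their median difference. Dotted lines mark the shares over all genes tested, 3.78% and 4.43%. ABC transporters and liver and gut genes stand at the top, and interferon response genes and carcinoma line markers at the bottom.

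Receptors of the EGF family, their ligands and the feedback genes of ERK were called in both directions: of 27 tested, 12 were higher and 10 lower in A549, against 30.9% and 32.2% of all genes, and 4 and 1 at 4-fold, against 3.78% and 4.43%. The lower calls were close to the share over all genes. EGFR had signals of 2848, 2054, 2444, 1886 and 1891 in A549 and 11464, 12347, 12190.2, 9569.7 and 10123 in H1650, a difference of -2.34 ± 0.10 (adjusted p = 3.96e-07, limma). Its other bright probe sets were lower in A549 as well, at -4.53 to -0.85. ERBB3, a partner receptor of the family, differed by -1.77 ± 0.16. Among ligands, TGFA was lower in A549 at 1419 to 1989 against 5253 to 7369 in H1650. EREG, epiregulin, was higher with 6204, 5325, 9304, 6206 and 9090.4 in A549 and 57.00, 61.9, 76.2, 175 and 136 in H1650. The line with the EGFR mutation thus had the higher transcript level of the receptor and of TGFA, and A549 that of EREG.

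Among genes that ERK signalling induces, DUSP4, a nuclear phosphatase of ERK, read 9089, 9189.6, 14186, 7551 and 7355 in A549 and 648, 542, 648, 515 and 455 in H1650. DUSP6, its cytoplasmic counterpart, differed by 1.79 ± 0.17, and ETV4, an ETS factor, by 2.11 ± 0.12. LRIG1, which promotes degradation of EGFR, differed by 2.29 ± 0.20. All 4 genes were higher in A549. Some other feedback genes and targets of the list were not. SPRED2 and FOSL1 were called lower, at -1.12 ± 0.12 and -0.96 ± 0.24, and DUSP5 and SPRY4 were not called. MET, another receptor kinase, differed by 0.35 ± 0.11, with overlapping signals, a call that was lost with quantile normalization, with the mean of all probe sets and without the unstimulated condition (adjusted p = 0.0707 to 0.597, limma), and 1 of 3 other bright probe sets in the same direction.

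SMARCA4 had signals of 287, 308, 289, 386 and 397 in A549 and 4428, 4418, 4506, 4051 and 4651 in H1650, a difference of -3.74 ± 0.11 (adjusted p = 7.15e-08, limma). All 6 of its other bright probe sets were lower in A549, at -4.78 to -0.31. Of the 24 tested SWI/SNF subunits, 5 were called higher and 8 lower, against 30.9% and 32.2% of all genes, shares that this list did not clearly exceed, and SMARCA4 alone was 4-fold different, against 8.21% of all genes. SMARCA2, the alternative ATPase, had a 95% confidence interval within 1.5-fold (798 to 1571 in A549 and 980.0 to 1557 in H1650), and 2 of its 5 other bright probe sets had the same sign. SMARCE1, a DNA-binding subunit, was higher at 1.56 ± 0.10, and BRD9, a bromodomain subunit, lower at -1.33 ± 0.14. Among 19 tested genes altered in lung adenocarcinoma, 7 were called higher and 6 lower, close to the same shares, and EGFR and SMARCA4 were 4-fold different. MTAP, a salvage enzyme encoded next to CDKN2A, differed by -1.54 ± 0.13, while its other bright probe set differed by -0.02. CDKN2A itself was dim, at 54.9 to 98.4 in A549 and 89.6 to 148 in H1650, and was not called.

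Targets of p53 were mostly called higher in A549. Of 24 tested, 18 were called higher and 1 lower, against 30.9% and 32.2% of all genes, with a median of 0.89. The 2 called at 4-fold were 8.33% of the list, close to the 8.21% of all genes. GDF15, a stress cytokine, had 5382, 4665, 6165, 7759 and 10089 in A549 and 872, 813, 759, 1408 and 929 in H1650. TNFRSF10B, a death receptor, had 9227, 6053, 6759.9, 7628 and 8575 in A549 and 1375, 1589, 1598, 1512 and 1469 in H1650. Neither gene overlapped between the lines. MDM2, the ligase that degrades p53, differed by 1.18 ± 0.25, BAX, a pore-forming death effector, by 1.12 ± 0.17, and FBXW7, a ubiquitin ligase subunit and the member called lower, by -0.83 ± 0.15. CDKN1A, the p21 inhibitor, was not called, with 8015, 3639.9, 4019, 7053 and 7672 in A549 and 4737, 4815, 4434, 3445 and 3941 in H1650. In A549 both CDKN1A and MDM2 were lowest on the 2 stimulated control arrays.

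In the IGF axis 9 of 15 tested genes were called higher and 5 lower in A549, against 30.9% and 32.2% of all genes, 7 and 2 of them at 4-fold, against 3.78% and 4.43%. IGFBP1, a binding protein made by liver, read 6729, 5506, 9626, 11531 and 14453 in A549 and 21.4, 18.1, 19.6, 48.9 and 48.2 in H1650, at least 117-fold higher. IGF1R, the receptor, read 8200.0, 4681, 4061, 7479 and 6812 in A549 and 384, 403, 288, 567 and 618 in H1650. Downstream, the adaptors IRS1 and IRS2 differed by 2.55 ± 0.10 and 2.14 ± 0.17. GRB10, another adaptor, differed by 4.76 ± 0.15, with 0.79 to 1.98 on other probe sets. Receptor and adaptors were thus all higher in A549, and the binding proteins were split. IGFBP4 differed by 4.62 ± 0.23, while IGFBP2 and IGFBP3 were lower in A549 at -2.61 ± 0.11 and -3.24 ± 0.09.

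In the WNT pathway 13 of 23 tested genes were called higher and 7 lower in A549, against 30.9% and 32.2% of all genes, 5 and 2 at 4-fold, against 3.78% and 4.43%. The lower calls were close to the share over all genes. Secreted antagonists were among the higher ones, DKK1 with 3.06 ± 0.10, DKK3 with 3.35 ± 0.23 and SFRP1 with 5.38 ± 0.16 (4 of 5 H1650 arrays below the median, at least 38.99-fold with the floor). AXIN2, a feedback gene of the pathway, was at least 8.83-fold higher. The ligands WNT7A, WNT4 and WNT5A were lower, at -3.26 ± 0.48 (4 of 5 A549 arrays below the median, at least 4.72-fold with the floor), -2.14 ± 0.57 (4 of 5 A549 arrays below the median, at least 2.28-fold with the floor) and -2.01 ± 0.14. In the BMP pathway GREM1, an antagonist, was at least 24.3-fold higher, whereas NOG, the antagonist noggin, was lower at -3.73 ± 0.28. Of the ligands BMP7 and BMP2 were lower, at -2.67 ± 0.18 and -2.12 ± 0.37, and TGFB1 was higher at 1.83 ± 0.11. ID2 and ID3, relatives of ID1, were higher in A549: ID2 read 5446, 9087, 13553, 4356 and 4321 in A549 and 487, 492, 520.4, 528 and 375 in H1650, and ID3 differed by 1.12 ± 0.21. ID2 in A549 was lowest on the ID1 siRNA arrays and highest on the control array with EGF.

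Of 34 tested matrix proteins, 12 were called higher and 13 lower, close to the 30.9% and 32.2% of all genes, and 7 and 8 at 4-fold, against 3.78% and 4.43%. COL5A2, a fibrillar collagen chain, read 11021, 7592, 8214, 10642 and 9759 in A549 and 56.1, 49.4, 54.8, 129 and 100.2 in H1650. FBN2, a fibrillin, was at least 22.2-fold higher and COL4A6, a basement membrane collagen, differed by 4.53 ± 0.15. TNC, tenascin C, was lower, at 80.6 to 365 in A549 against 4481 to 6641 in H1650, and EFEMP1, a fibulin, differed by -3.31 ± 0.13. Of 27 proteases and inhibitors, 8 were called higher and 13 lower, 2 and 7 at 4-fold, against the same shares of all genes. The kallikreins KLK5 and KLK10 were lower in A549 at -6.21 ± 0.11 (4 of 5 A549 arrays below the median, at least 65.2-fold with the floor) and -6.45 ± 0.75 (4 of 5 A549 arrays below the median, at least 29.6-fold with the floor). MMP7, the metalloprotease matrilysin, was higher with 5049, 2278, 2090.2, 6237 and 6133 in A549 against 117, 156, 87.9, 187 and 114 in H1650. ITGA4, an integrin chain, was at least 27.2-fold lower.

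Interferon-stimulated genes had line differences that varied between conditions more than those of any other list, with an SD of 2.23 over the 5 medians against 0.92 for the next, MHC class I. Over all 5 conditions 13 of 27 tested were called lower and 1 higher in A549, against 32.2% and 30.9% of all genes, and 12 and 1 at 4-fold, against 4.43% and 3.78%, with a median of -1.95. The median was -3.11 unstimulated, -4.44 with nicotine and -2.50 with EGF under control siRNA. Under ID1 siRNA it was 0.08 with nicotine and 0.88 with EGF. Without the unstimulated condition 7 genes were called at 4-fold (1 higher, 6 lower), and on the control siRNA arrays alone 21 (1 higher, 20 lower).

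RSAD2, the antiviral protein viperin, had signals of 71.7, 30.7, 55.5, 492 and 742 in A549 and 10751, 11276, 4932, 3029 and 2019 in H1650. MX1, a GTPase that blocks viruses, read 1091, 361, 615, 5755 and 7894 in A549 and 16217, 16098, 10308, 7663 and 4940.2 in H1650. The A549 signals were higher and the H1650 signals lower on the ID1 siRNA arrays than on the stimulated controls of the same line for both genes. For MX1 the lines overlapped there, and its call as lower was lost without any 1 of the 3 control conditions (adjusted p = 0.0591 to 0.0755, limma). BST2, tetherin, read 119, 10.96, 21.7, 754 and 1024 in A549 and 6807, 6455, 5260.5, 6963 and 5846 in H1650. IRF7, a factor that induces interferon genes, was the exception in the list, at 1090.3, 471, 963, 2749 and 4442 in A549 and 39.2, 23.7, 12.5, 36.7 and 27.7 in H1650, at least 18.6-fold higher.

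The MHC class I genes had a similar pattern at smaller size. Of 20 tested, 13 were called lower and 0 higher in A549, against 32.2% and 30.9% of all genes. At 4-fold 2 were lower, against 4.43%. The median was -1.75, -1.90 and -1.34 on the control siRNA arrays and -0.25 and 0.15 with ID1 siRNA. HLA-B, whose probe sets can share reads of other class I genes, read 2981, 1734, 2202, 8762 and 10946 in A549 and 18264, 18750.2, 15159, 13055 and 14062 in H1650. PSMB10, a subunit of the immunoproteasome, differed by -1.90 ± 0.21, and ERAP2, a peptidase that trims antigens, by -3.19 ± 0.33. HLA-B was several times brighter on the ID1 siRNA arrays of A549 than on its controls, and changed less in H1650. B2M, the light chain of class I molecules, had a 95% confidence interval within 1.5-fold at 18087 to 30453 in A549 and 23179.9 to 27158 in H1650, although the mean of its probe sets was lower in A549 (-0.57).

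Of 24 tested cytokines, 13 were called higher and 6 lower in A549, against 30.9% and 32.2% of all genes, so that these lower calls did not exceed the share over all genes. At 4-fold, 4 were higher and 4 lower, against 3.78% and 4.43% of all genes, so that there both exceeded the shares. CCL2, a monocyte attractant, had 2641, 971, 752, 3599 and 3072 in A549 and 29.5, 59.4, 19.2, 86.4 and 64.2 in H1650, and CXCL3, a neutrophil attractant, differed by 3.53 ± 0.32. Both attractants were higher in A549. IL6, a cytokine of the acute phase, was lower with 318, 189, 183, 969.7 and 956 in A549 against 6911, 8037, 5170.2, 4377 and 4596 in H1650. CCL5, a T cell attractant, was lower with 146, 153, 165, 960.2 and 1028 in A549 against 11233, 12273, 5545, 3530.4 and 3019 in H1650. In H1650 both IL6 and CCL5 had their highest values under control siRNA without EGF, and in A549 their highest under ID1 siRNA. Among complement and coagulation genes, of which 10 of 21 were called higher and 5 lower against the same shares, C1S, a complement protease, was at least 14.6-fold higher and C5 differed by 4.34 ± 0.16. THBD, thrombomodulin, read 5364, 947, 1034, 5399.7 and 5459.8 in A549 and 60.7, 55.2, 67.00, 97.00 and 133.1 in H1650, with the A549 array labelled as unstimulated control at the level of the ID1 siRNA arrays. F3, tissue factor, was lower in A549 at -3.88 ± 0.17.

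**Figure D5:**
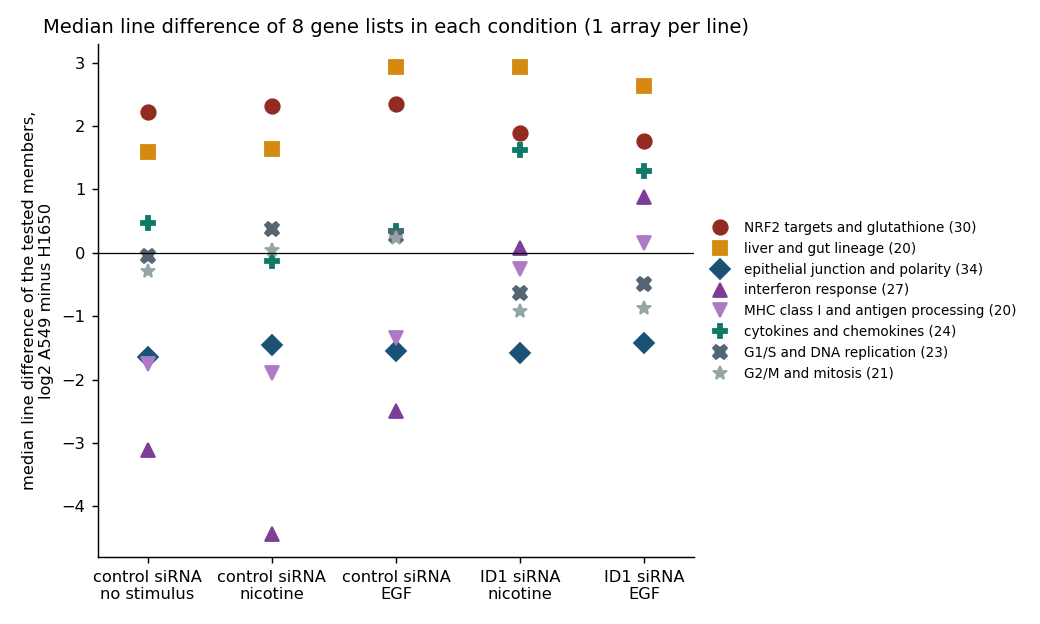
Median line difference (log2 A549 minus H1650) of the tested members of 8 gene lists in each of the 5 conditions, with 1 array per line in each. The interferon response list lies at -2.50 or below under control siRNA and above 0 under ID1 siRNA, while the epithelial junction list stays between -1.64 and -1.43.

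The dependence of line differences on siRNA was tested on the 8 stimulated arrays. With 2 residual degrees of freedom, limma called 862 genes (6.89%), 551 with a difference higher under ID1 siRNA (4.4%) and 311 with a lower one (2.49%). This count rested on the intensity trend of limma, without which 35 genes were called. With arrays centred on their medians 383 were higher and 1092 lower, so the balance of directions depended on the scaling. Data simulated for this contrast, with 200 genes changed by 4-fold or less, had 45.5% of 4-fold changes and none of 2-fold changes recovered. More genes were called in the data, some with changes of about 0.60 log2 units. These rates therefore do not give what was detectable there. The interferon list had 26 of its 27 tested genes among the higher ones, MHC class I 13 of 20 and cytokines 16 of 24, against 4.4% of all genes. Of the genes of G1/S and DNA replication 16 of 23, and of those of G2/M and mitosis 18 of 21, had a lower difference under ID1 siRNA, against 2.49%.

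The largest changes of the difference were those of IFI44L (6.77 ± 1.04 log2 units, adjusted p = 0.00886, limma), XAF1 (6.16 ± 0.69), CMPK2 (5.80 ± 0.67), BST2 (5.70 ± 0.40) and CXCL11 (5.61 ± 0.44), all interferon-induced. IFI44L had signals of 309.5, 25.02, 147, 1979 and 2628 in A549 and 8200.3, 9189, 3365, 2570.1 and 1429 in H1650, so that A549 was the lower line under control siRNA and under nicotine with ID1 siRNA, and the higher one with ID1 siRNA and EGF. The call of IFI44L between the lines was lost without any 1 of the 3 control conditions (adjusted p = 0.0671 to 0.0907, limma). In the mitotic list 2 of 21 genes were called higher and 8 lower, against 30.9% and 32.2% of all genes, so the lower calls were near that share. At 4-fold 0 were called, against 8.21%, and the median line difference was -0.37. By condition that median was -0.29, 0.04 and 0.23 under control siRNA and -0.91 and -0.86 under ID1 siRNA. MKI67, a marker of cycling cells, read 1441, 1823, 1736, 1403 and 1425 in A549 and 1761, 1721, 1432, 2641 and 2867 in H1650.

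Whether the lines differed in the contrast of EGF with nicotine was tested on the same 8 arrays. Limma called 0 genes (0%) after Benjamini-Hochberg adjustment, and 185 genes had an unadjusted p under 0.05, fewer than unchanged genes alone would be expected to give. The residual spread of this fit contained the dependence of line differences on siRNA, which was large for many genes. The count of 0 therefore does not show that the lines were alike in this contrast. With pairs of the same line and siRNA as blocks, 9 genes were called.

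Many abundant genes were at a like level. For 3027 genes (24.2%) the 95% confidence interval of the line difference lay within 1.5-fold. The 8 brightest of them were ACTB (cytoplasmic actin), TUBA1B (tubulin), PPIA (cyclophilin), the ribosomal genes RPL24 and RPL37, and the mitochondrially encoded COX2, ND2 and ND4. ACTB read 30777, 31071, 49792, 27691 and 35931 in A549 and 30807, 29229, 29819.6, 28821 and 31875 in H1650, and PPIA 27225, 26849, 43459, 23815 and 29081 in A549 and 25731, 24871, 25739, 25304 and 27914 in H1650. The highest value of each was that of the A549 control array with EGF. The differences of these 8 genes were between 0.13 ± 0.12 (ND4) and 0.26 ± 0.14 (ND2), and all 8 changed sign with quantile normalization, to between -0.21 and -0.08.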

How the data were processed

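RNA of each of the 10 samples was hybridised to an Affymetrix Human Genome U133 Plus array by the authors. The intensity values they deposited are MAS5 signals made with GCOS 1.4, per the submitters' processing notes. They are linear and each array has a 2% trimmed mean of about 500, although the labels name a log2 step. The number of arrays limits the precision. From the deposited intensity values log2 signals were computed here. Of 54675 probe sets, 41091 have 1 gene symbol in the platform annotation, 1801 have several, 11721 none and 62 are controls; those with 1 symbol represent 19775 genes. Each gene took its brightest probe set, and genes with a mean under log2 6.06 (signal 66.7) were left out. Limma 3.58.1 in R 4.3.3 fitted line with condition as a block and an intensity trend, with Benjamini-Hochberg adjustment over 12514 genes. The p-values measure only the spread between these samples, which may be technical.

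The dependence of line differences on siRNA and on stimulus was fitted on the 8 stimulated arrays. In simulated data with 200 of 12514 genes changed, the line test recovered 29.9%, 71.6% and 97.0% of changes of 1.5, 2 and 4-fold. Of its calls 3.65% were unchanged genes. In the data 7893 genes were called, so the rates may differ there. A gene was called at like level where the 95% confidence interval lay within 1.5-fold. The lines and gene lists were chosen with earlier results of these data known. Named genes were the 12 furthest apart in each direction, up to 4 called members per direction of each list, all members of the lists of lung lineage, carcinoma markers and genes altered in lung adenocarcinoma, up to 5 per direction for each interaction, and the 8 brightest of like level, from which the text takes a selection. A further 26 of 195 genes named, among them GCLC, NQO1, NFE2L2, VIM, MX1 and CDKN1A, lie outside that rule and were chosen after their values were seen. Some more genes, such as SPRED2, SNAI2 and AXL, were named beside these 195, also after their values were seen. Promoter windows were matched by symbol to RefSeq (GRCh38.p14). Other normalizations, offsets, filters, probe set rules and left-out conditions were tried, and so were list counts without the unstimulated condition and on control siRNA arrays only, the last 2 chosen after seeing the data.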

Additional observations from a re-analysis of the deposited data

Results flagged for a closer look

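In 6 of the 48 groups formed by the 24 genes furthest apart and the 2 lines, the highest or lowest of 5 arrays stood apart from the other 4 by Dixon's criterion, and about 1 in 20 groups would do so by chance. The A549 control siRNA array with EGF was high for AKR1C3 (36679, line median 24052) and AKR1C1 (30407, line median 21729). The H1650 array with ID1 siRNA and nicotine was high for UCA1 (7387, line median 6069). The remaining 3 were signals below the array median: DNAJC12 in H1650 with control siRNA and nicotine (14.9), CDH3 in the unstimulated A549 control (27.3), and SPRR1B in A549 with control siRNA and EGF (3.20).

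Among the 862 genes whose line difference under ID1 siRNA differed from that under control siRNA by the interaction test, the 5 furthest in each direction are given. The difference was higher by 6.77 log2 units for IFI44L, 6.16 for XAF1, 5.80 for CMPK2, 5.70 for BST2 and 5.61 for CXCL11. It was lower, with -2.74 for MYOZ3, -2.67 for MPND, -2.63 for TMEM156, -2.52 for PKD1P1 and -2.37 for TEX22. MYOZ3 read 20.7 to 148 in A549 and 91.3 to 146 in H1650, MPND 133.3 to 201 and 10.4 to 124, and TMEM156 841 to 1464 and 2.50 to 52.6.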

How the results depend on the processing

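The count of 7893 genes called between the lines stayed within a factor of 1.5 under every alternative run, at 5393 to 8732. The 1027 genes called at 4-fold became 1010 to 1052 when each condition was left out in turn, 444 with the filter at the 75th percentile (all among the 1027) and 3146 when 2-fold was asked for. Fitted with no replicate block, which ignores the matched conditions, the count was 1027, the same genes. The mean of all probe sets gave 700. Genes of like level numbered 543 within a narrower limit and 6980 within 2-fold, against 3027. The siRNA dependence of line differences was the least stable: 1475 genes with centred arrays, 569 without a filter, 425 with the mean of all probe sets, 35 without the intensity trend and 1473 with pairs of 1 line as replicate block, against 862. That block gave 9 genes for EGF against nicotine, against 0. Over 195 of the named genes and their alternatives, 18 of the comparisons changed sign. With quantile normalization these were ACTB (-0.15), COX2 (-0.090), ND2 (-0.083), ND4 (-0.21), PPIA (-0.15), RPL24 (-0.13), RPL37 (-0.11), TUBA1B (-0.077) and B2M (-0.33). With the mean of all probe sets they were B2M (-0.57), ELF3 (0.20) and SMARCA2 (-0.29), and with centred arrays ELF3 (0.0022). With a condition left out they were B2M (-0.060 to 0.13), SMARCA2 (-0.054 without the unstimulated condition) and MYOZ3 (-1.30 to 0.0056, the latter without control siRNA and nicotine). The causes were not tested. With 1 array per line and condition, the spread within a condition is unknown, and genes below the array median in a line have only a bound.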

Other observations

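Line differences were also read along the genome, as the median over runs of 15 neighbouring tested genes, ordered by RefSeq (GRCh38.p14) and without a test. The run with the lowest median, -2.91, was the epidermal differentiation cluster with IVL, SPRR and S100 genes, in which 10 genes were called lower in A549 and 3 higher. The 3 higher ones included S100A4 (5.88 ± 0.24) and S100A3 (2.31 ± 0.24), which lie among S100A14, at -6.72 ± 0.49 (3 of 5 A549 arrays below the median, at least 62.1-fold with the floor), S100A2 (-2.74 ± 0.16), S100A8 and S100A9 on the lower side. A pair of clusters of zinc finger genes had medians of -2.26 (11 of 15 lower, 0 higher) and -1.76 (13 of 15 lower, 0 higher), and a run with PI3, SLPI and WFDC2, secreted protease inhibitors of epithelia, had -2.21 (13 of 15 lower). On the higher side a run with GATA4 and CTSB had the highest median, 1.577, with 12 of 15 called higher and 1 lower. The next, with APEX1, a DNA repair endonuclease, PNP, ANG and RNASE1, had a median of 1.565, with 14 of 15 called higher. Over all 11797 such runs, which overlap, the 1st and 99th percentiles of the median were -1.10 and 1.04.

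Some single genes of other groups were far apart. CA12, a membrane carbonic anhydrase, read 13150.2 to 16928 in A549 and 179 to 297 in H1650, and CYP24A1, which degrades vitamin D, 7572 to 8759 and 30.1 to 93.7. UCHL1, a deubiquitinase of neurons, read 13998 to 21725 and 179.8 to 319, with 1.62 log2 units on its other bright probe set. LIN28B, a repressor of let-7 microRNAs, was at least 12.8-fold higher in A549, and HOXB8 at least 11.4-fold. HK2, the inducible hexokinase, was lower in A549 with 124, 37.6, 12.5, 158 and 199 against 5554, 5908, 5965, 4287 and 5981, and its other bright probe sets differed by -2.78 and -1.83. CHRNA5, a nicotinic receptor subunit, differed by 1.22 ± 0.12, ADRB1, a beta-adrenergic receptor, by -0.75 ± 0.17, and no tested receptor of that list was 4-fold different.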
